A study of Mus musculus with 6 samples.

Results

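The genes described here are the ephrins, Eph receptors, semaphorins and plexins, guidance cues and their receptors, in mouse colorectal tumours. Members were taken by symbol from the array's annotation (Epha and Ephb receptors, Efna and Efnb ligands, semaphorins of classes 3 to 7, and plexins a to d), and 51 of the 22180 genes measured met that rule. They comprised 13 Eph receptors, 8 ephrins, 20 semaphorins and 9 plexins. The last member, Plxna4os1, is an antisense transcript named for its host gene and is no plexin. Only probe sets annotated to exactly 1 symbol were used, and the EphB receptor Ephb2 is not among the members. The rule used no measured value other than the mean signal that chose 1 probe set per gene, which 3 members needed. Tumours arose from mouse colorectal cancer cells injected into white adipose tissue or into non-adipose tissue and were taken at 1 to 1.5 cm3, with 3 mice per site and 1 tumour on each array. Neither group carried a named genetic change or drug treatment in the labels. The sources used here name neither the cancer cell line, the strain, sex or age of the mice nor the exact injection sites. The text calls the arrays non-adipose 1, 2 and 3 and white adipose 1, 2 and 3 by the labels' replicate numbers.

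Eph receptors are tyrosine kinases on the cell surface, and their ligands, the ephrins, are also held on the surface, so that contact between neighbouring cells can signal into both. Ephrin-A proteins are tied to the membrane by a lipid anchor and ephrin-B proteins span it. Semaphorins are secreted or membrane-bound ligands, and plexins are their main receptors, which act on small GTPases and the cytoskeleton. Both families are known for steering axons, and in other tissues for cell sorting, vessel patterning, immune cell contacts and tumour cell movement. In the gut, EphB receptors and ephrin-B ligands help to keep crypt cells in place.

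No guidance gene passed the test between the tumour sites. In limma, with p-values adjusted by Benjamini-Hochberg over all genes and a threshold of 0.05, 0 of 51 members and 0 of 22180 genes (0%) were called, and the members' adjusted p-values ran from 0.936 to 0.995. All values are log2 signals as deposited, so a difference of 1 is a doubling. Of the members, 33 had a higher and 18 a lower mean in the white adipose tumours, 64.7% higher against 49.7% over all genes. Their median difference was 0.060, against -0.0004 over all genes, and the median size of a difference was 0.12 against 0.077. At an unadjusted p under 0.05 there were 2 higher members, Sema4f and Epha5 (background 1.66% of all genes), and 1 lower, Plxna1 (background 2.13%), together 5.88% of members against 3.79% of genes. The 3 arrays of each site did not overlap for 6 members, 11.8%, against 7.31% of all genes. Higher without overlap were Sema4f, Epha5 and Sema5a (background 3.34%), and lower Plxna1, Efna2 and Efnb2 (background 3.97%). A difference of at least 0.5 in size was found for Efna5, Sema5a and Sema3d, 5.88% of members against 1.56% of genes.

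**Figure D1:**
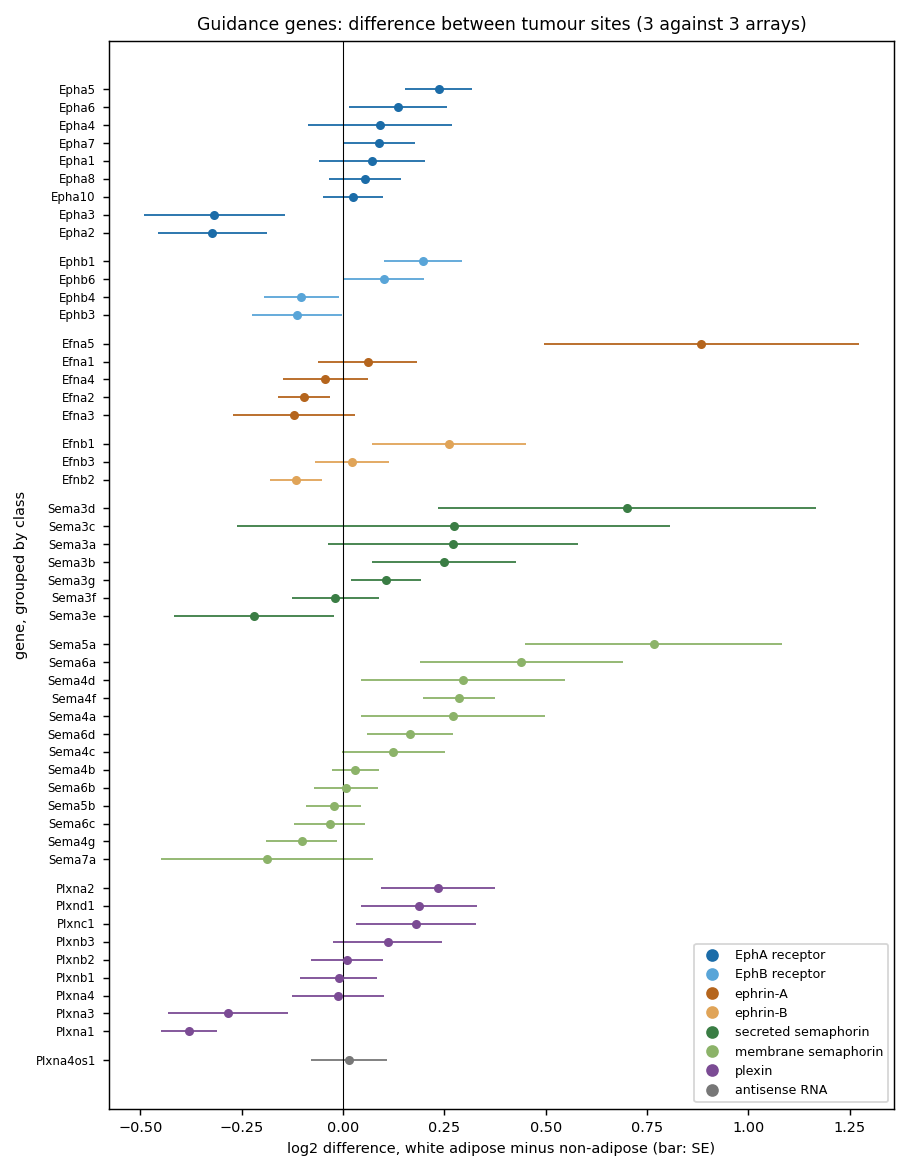
The log2 difference between white adipose and non-adipose tumours is plotted for each of the 51 genes, grouped and coloured by class, with the point at limma's estimate and the bar at 1 standard error (3 against 3 arrays). Most points lie within 0.3 of 0, and Efna5, Sema5a and Sema3d stand furthest to the right with long bars.

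The arrays were alike in level, with medians of 5.66 to 5.69, and correlated across genes at 0.983 to 0.995. White adipose 1 stood apart in skin epithelial markers, at a mean of 7.95 over the 9 measured of 10 against 5.44 to 6.21 on the other arrays. Krt10 and Krt1 were the highest of them there, at 11.59 and 10.44. Trp63 was instead highest in non-adipose 3, at 7.26 against 6.81 in white adipose 1. Sfn in white adipose 1, at 7.11, lay below every non-adipose array. Skeletal muscle markers averaged 6.29, 5.40 and 6.98 in non-adipose 1, 2 and 3 and 5.40 to 5.56 in the white adipose tumours. The mean over the latter was lower for 10 of 10, but non-adipose 2 was level with the lowest white adipose tumour. Adipocyte markers (9 measured of 10) averaged 5.82 to 5.92 in non-adipose and 5.67 to 6.10 in white adipose tumours, with 6 higher and 3 lower. Adipoq, the adipocyte hormone adiponectin, was at 4.14 and 4.17, in the lowest 15.6% of genes by mean signal. Of the 12 intestinal epithelial markers, 4 lay above percentile 50 of mean signal: Krt8, Krt18, Cdh1 and Muc2, at 96.1, 94.9, 66.9 and 52.0. The other 8 lay at 23.3 to 43.0, with Epcam, Vil1 and Cdx2 at 29.1, 23.3 and 38.9. No detection call was at hand, so a low value may be background. These are bulk tumours, in which fewer cells of a type and less RNA per cell cannot be told apart.

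Plexins held the member with the smallest p-value. Plxna1, a receptor of class 3 semaphorins through neuropilins and of Sema6d directly, was at 9.30, 9.32 and 9.40 in non-adipose 1, 2 and 3 and at 9.06, 8.90 and 8.92 in white adipose 1, 2 and 3. Every white adipose tumour lay below every non-adipose tumour. The means were 9.34 ± 0.055 and 8.96 ± 0.084 (SD, n = 3 each), a 1.30-fold lower signal with a log2 difference of -0.38 (SE 0.070, 95% confidence interval -0.55 to -0.21). The adjusted p in limma was 0.936. The difference lay between -0.43 and -0.35 whichever array was left out. A dimmer Plxna1 probe set, at means of 6.80 and 6.66, differed by -0.14, and its groups overlapped.

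Plxna3, another neuropilin partner, was at 8.12, 8.52 and 8.21 in the non-adipose and 8.12, 8.12 and 7.75 in the white adipose tumours. Its difference was -0.28 (SE 0.15), or -0.16 without white adipose 3, the lowest array, and the groups touched at 8.12. Plxna2, a receptor of Sema6a as well as of class 3 signals, ran the other way, at 8.27, 8.35 and 8.60 against 8.51, 8.90 and 8.51. It differed by 0.23 (SE 0.14) and by 0.10 without white adipose 2. The neuropilin-independent receptor of Sema3e, Plxnd1, differed by 0.19 (SE 0.14), and by 0.059 without non-adipose 1. Plxnc1, the plexin that binds Sema7a, differed by 0.18 (SE 0.15), and by 0.039 without non-adipose 2. The remaining Plxna4, Plxnb1, Plxnb2 and Plxnb3 lay between -0.012 and 0.11. In all, 5 plexins had a higher and 4 a lower mean, with a median difference of 0.0084.

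**Figure D2:**
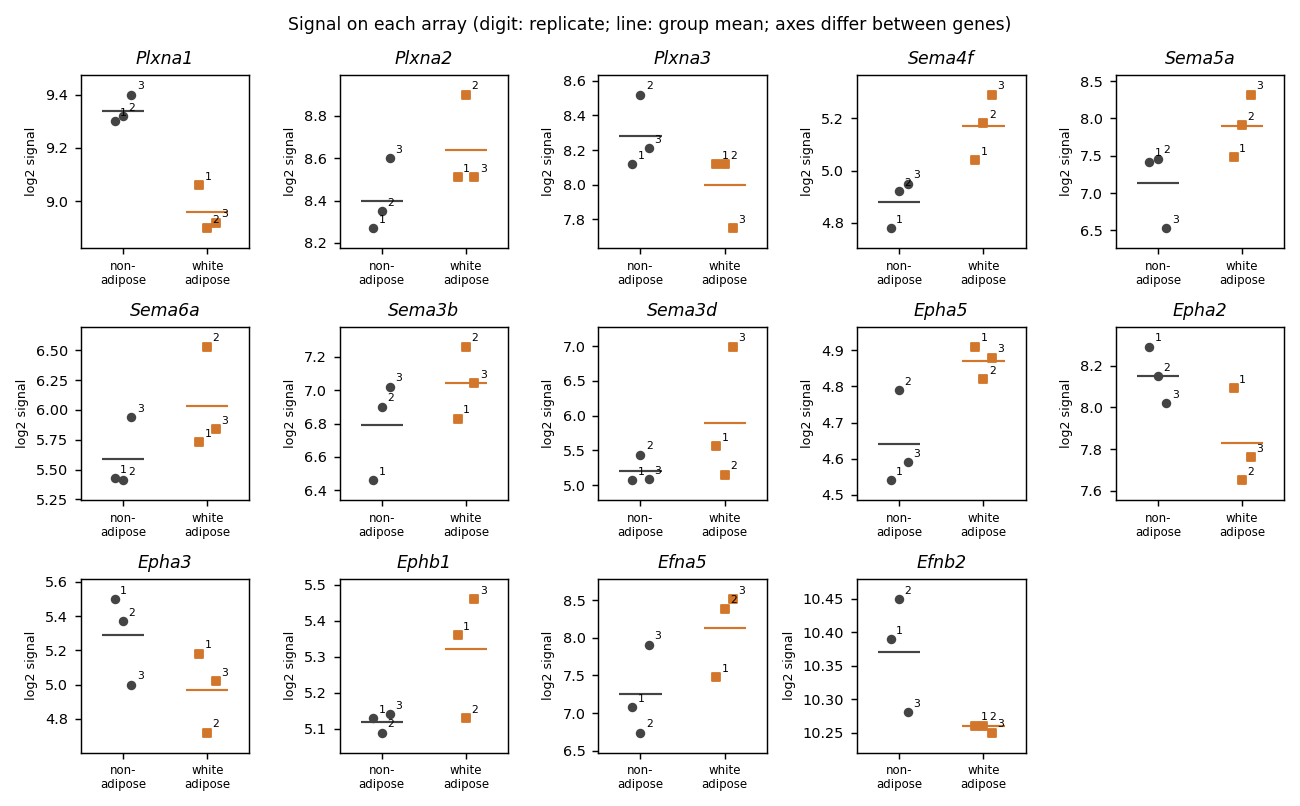
Log2 signal on each array is plotted for the 14 genes named by rule, with non-adipose tumours as circles, white adipose tumours as squares, the replicate number beside each point and the group mean as a line. Axes differ between genes. Plxna1, Sema4f, Sema5a, Epha5 and Efnb2 show no overlap between sites, whereas the high mean of Sema3d in white adipose tumours rests on replicate 3.

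Membrane semaphorins mostly had higher means in the white adipose tumours, 9 of 13, with a median difference of 0.12, and none passed the test. Sema4f, a transmembrane semaphorin studied in nerve and prostate, was at 4.78, 4.92 and 4.95 in non-adipose and 5.04, 5.18 and 5.29 in white adipose 1, 2 and 3. All white adipose values were above all non-adipose ones, with a difference of 0.29 (SE 0.089, 95% confidence interval 0.071 to 0.50), 1.22-fold. The probe set is dim, at percentile 30.8 of mean signal. Sema5a, whose thrombospondin repeats let it act on both axons and vessels, was at 7.42, 7.46 and 6.53 in non-adipose and 7.48, 7.91 and 8.32 in white adipose 1, 2 and 3. Non-adipose 3 was low and white adipose 3 high, and white adipose 1 was level with non-adipose 1 and 2. The means of 7.14 ± 0.52 and 7.90 ± 0.42 (SD, n = 3 each) differed by 0.77 (SE 0.32, interval -0.0077 to 1.54), 1.70-fold, and by 0.46 without non-adipose 3.

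Sema6a, the transmembrane ligand of Plxna2 and Plxna4, was at 5.43, 5.41 and 5.94 in non-adipose and 5.73, 6.53 and 5.84 in white adipose tumours. It differed by 0.44 (SE 0.25), and by 0.19 without white adipose 2, its highest array. Sema4a and Sema4d, both known from contacts between immune cells, were named after their values were seen because they shared a pattern. Sema4a was at 6.97, 6.63 and 7.27 in non-adipose and 6.82, 7.43 and 7.43 in white adipose tumours, a difference of 0.27 (SE 0.23), or 0.11 without non-adipose 2. Sema4d was at 6.88, 6.35 and 7.12 and at 6.68, 7.29 and 7.27, a difference of 0.30 (SE 0.25), or 0.078 without non-adipose 2. In both genes non-adipose 3 and white adipose 2 and 3 were high and white adipose 1 lay among the other non-adipose arrays. Sema7a, a lipid-anchored semaphorin that also signals through beta1 integrins, differed by -0.19 (SE 0.26), but by 0.044 without non-adipose 2 and 0.012 without white adipose 1. The other 7, Sema4b, Sema4c, Sema4g, Sema5b, Sema6b, Sema6c and Sema6d, lay between -0.10 and 0.17.

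Of the 7 secreted semaphorins, most of which bind neuropilins together with class A plexins, 5 had a higher and 2 a lower mean, with a median difference of 0.25. Single arrays set several of these values. Sema3d was at 5.07, 5.44 and 5.09 in non-adipose and 5.56, 5.15 and 6.99 in white adipose tumours. White adipose 3 alone was high, and the difference of 0.70 (SE 0.47) became 0.15 without it. Sema3c was at 8.49, 7.02 and 9.27 against 8.47, 8.57 and 8.56. The non-adipose tumours spread over a wider range than the white adipose ones, and the difference of 0.27 (SE 0.53) became -0.35 without non-adipose 2. Sema3a, the classical repellent of axons, was at 6.13, 6.43 and 5.18 against 6.18, 6.13 and 6.24. Its difference of 0.27 (SE 0.31) became -0.095 without non-adipose 3. Sema3b, described as a tumour suppressor in several cancers, was at 6.46, 6.90 and 7.02 against 6.83, 7.26 and 7.04, a difference of 0.25 (SE 0.18) that became 0.085 without non-adipose 1. Sema3e, at percentile 99.3 of mean signal, was at 11.24, 11.34 and 10.99 against 11.38, 10.66 and 10.87, a difference of -0.22 (SE 0.20) that became -0.066 without white adipose 2. It was lowest in white adipose 2 and 3 and highest in white adipose 1. Sema3f and Sema3g differed by -0.019 and 0.11. Sema3a, Sema3c and Sema3e were also named after their values were seen.

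**Figure D3:**
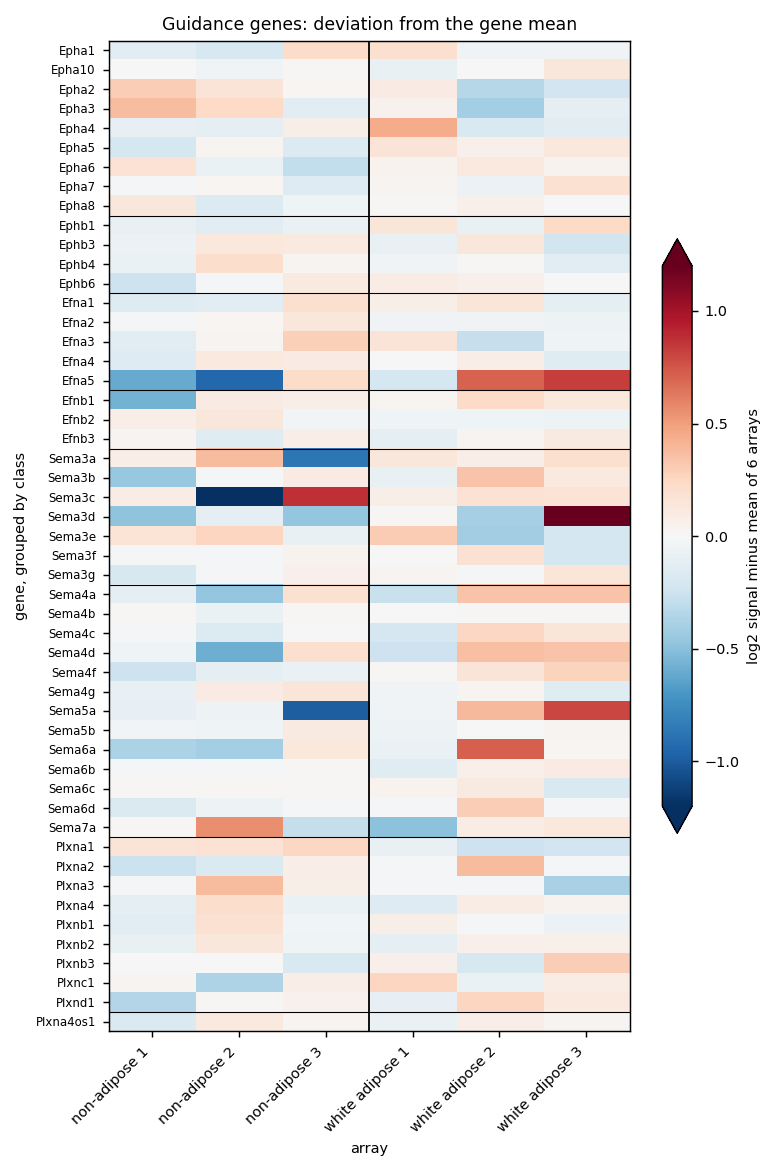
The signal of each of the 51 genes on each of the 6 arrays is shown as a colour, after subtraction of the gene's mean over the arrays (log2 scale, red above and blue below the mean), with classes divided by horizontal lines and sites by a vertical line. Strong colours include Sema3c and Efna5 in non-adipose 2, Sema3a and Sema5a in non-adipose 3 and Sema3d in white adipose 3. Neither site forms a block of 1 colour.

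Eph receptors had small differences, between -0.32 and 0.24, with 9 of 13 higher in the mean. Epha5, a receptor best known from the developing brain, was at 4.54, 4.79 and 4.59 in non-adipose and 4.91, 4.82 and 4.88 in white adipose tumours. The groups did not overlap, though non-adipose 2 came close to white adipose 2. The difference was 0.24 (SE 0.083, interval 0.032 to 0.44), 1.18-fold, for a dim probe set at percentile 25.2. Epha2, the receptor most often described as raised in carcinomas, was at 8.29, 8.15 and 8.02 against 8.09, 7.65 and 7.76. White adipose 2 and 3 lay below all others and white adipose 1 among the non-adipose tumours. The difference was -0.32 (SE 0.13, interval -0.65 to 0.0039), with -0.45 without white adipose 1 and -0.23 without white adipose 2. Epha3, at 5.50, 5.37 and 5.0 against 5.18, 4.72 and 5.02, differed by -0.32 (SE 0.17), and by -0.19 without white adipose 2. Its groups overlapped. Ephb1 was at 5.13, 5.09 and 5.14 against 5.36, 5.13 and 5.46, a difference of 0.20 (SE 0.096), with white adipose 2 level with the non-adipose tumours. The difference was 0.12 without white adipose 3. A second Ephb1 probe set differed by -0.0046. Ephb3, a crypt receptor and Wnt target, differed by -0.11 (SE 0.11), and by -0.033 without white adipose 3. Ephb4, the venous receptor of ephrin-B2, differed by -0.10 (SE 0.093), and by -0.024 without non-adipose 2. The other 7, Epha1, Epha4, Epha6, Epha7, Epha8, Epha10 and Ephb6, lay between 0.024 and 0.14.

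Among the 8 ephrins 4 had a higher and 4 a lower mean. Efna5, an ephrin-A that binds most EphA receptors, had the largest difference of all members. It was at 7.08, 6.74 and 7.91 in non-adipose and 7.48, 8.39 and 8.52 in white adipose 1, 2 and 3. White adipose 2 and 3 were the highest, but non-adipose 3 was above white adipose 1, so the groups overlapped. The means of 7.25 ± 0.60 and 8.13 ± 0.56 (SD, n = 3 each) differed by 0.88 (SE 0.39, interval -0.061 to 1.83), 1.85-fold. Leaving out 1 array gave 0.63 (without non-adipose 2) to 1.22 (without non-adipose 3). Efnb2, ephrin-B2 of arteries, was at 10.39, 10.45 and 10.28 against 10.26, 10.26 and 10.25. The groups did not overlap, with a difference of -0.12 (SE 0.065), 1.08-fold. Efna2 also did not overlap, at -0.096 (SE 0.063), or -0.053 without non-adipose 3. Efnb1, which pairs with EphB receptors at crypt boundaries, differed by 0.26 (SE 0.19) and by 0.043 without non-adipose 1, its lowest array. Efna1, Efna3, Efna4 and Efnb3 lay between -0.12 and 0.060.

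The promoter windows at hand held none for Plxna1, the member with the smallest p-value in limma, and Sema3d, with a difference of 0.70, was left out. For 4 members with a higher mean in white adipose tumours, the promoter is shown to give sequence context. They were picked from the members with the largest or best separated differences. They are Efna5, Sema5a, Epha5 and Sema4f, each with 1 start in the RefSeq table of GRCm38.p6, and each window holds the 250 bases before the start, 5′ to 3′ on the gene's strand. The windows are Efna5, chr17:62881318-62881567, minus strand, Sema5a, chr15:32244563-32244812, plus strand, Epha5, chr5:84417383-84417632, minus strand, and Sema4f, chr6:82939770-82940019, minus strand. Capitals mark GGGCGG and its reverse complement CCGCCC, the GC box that Sp1-type factors bind, with overlapping matches counted separately.
Efna5: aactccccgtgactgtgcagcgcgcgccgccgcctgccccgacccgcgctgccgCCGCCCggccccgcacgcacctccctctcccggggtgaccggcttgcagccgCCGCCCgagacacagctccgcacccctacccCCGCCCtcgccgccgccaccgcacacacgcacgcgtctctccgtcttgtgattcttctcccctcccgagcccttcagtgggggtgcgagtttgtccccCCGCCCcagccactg
Sema5a: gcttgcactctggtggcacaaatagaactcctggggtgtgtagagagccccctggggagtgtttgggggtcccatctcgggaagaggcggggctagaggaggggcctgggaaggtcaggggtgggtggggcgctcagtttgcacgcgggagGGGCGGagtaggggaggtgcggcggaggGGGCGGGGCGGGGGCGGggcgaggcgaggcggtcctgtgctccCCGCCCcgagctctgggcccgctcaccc
Epha5: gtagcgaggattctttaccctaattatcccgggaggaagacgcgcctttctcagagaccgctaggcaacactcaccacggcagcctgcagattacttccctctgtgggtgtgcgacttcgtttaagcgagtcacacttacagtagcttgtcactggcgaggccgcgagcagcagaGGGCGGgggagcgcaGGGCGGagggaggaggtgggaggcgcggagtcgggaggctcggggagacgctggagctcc
Sema4f: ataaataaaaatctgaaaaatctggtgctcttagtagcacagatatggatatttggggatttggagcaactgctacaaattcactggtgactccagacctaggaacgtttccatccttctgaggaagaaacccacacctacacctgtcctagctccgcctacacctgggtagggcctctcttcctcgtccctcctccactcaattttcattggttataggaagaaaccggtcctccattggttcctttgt
The letters GGGCGG or CCGCCC occurred 4 times in the Efna5 window, 5 times in Sema5a, 2 times in Epha5 and 0 times in Sema4f. GC content was 74.8%, 72.0%, 62.4% and 46.0% in the same order, with 32, 17, 20 and 4 CpG pairs. Sema4f instead held 2 matches of CCAAT or its reverse ATTGG, which the other 3 lacked, and none of the 4 held TATAAA or TTTATA. A GC box was found in 42.6% of the 21262 windows of protein-coding genes. These matches describe letters in a window and no binding or activity was measured.

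The arrays often divided along a line other than the site. For 15 of the 51 members, 29.4%, the highest 3 arrays were non-adipose 3 and white adipose 2 and 3, against 11.5% of all genes. Over all genes this was also the most frequent set of 3 highest arrays. Among these members were Efna5, Sema4a, Sema4d, Sema6a, Plxna2, Plxnd1, Sema3b and Sema3c. Others, such as Sema4b at 7.18 to 7.28 and Sema5b at 6.06 to 6.23, varied little between arrays. Sema3e, Epha2 and Epha3 had the reverse order, with non-adipose 1 and 2 and white adipose 1 highest (5.88% of members and 7.99% of genes). This grouping was read from the arrays and is no label of the study. T cell markers (8 measured of 10, 7 with a higher and 1 with a lower mean in white adipose tumours) had the same highest arrays in the mean of the list. Cd4 and Cd5 did not on their own. The list averaged 5.86, 5.56 and 6.78 in non-adipose 1, 2 and 3 and 6.06, 6.49 and 6.38 in white adipose 1, 2 and 3. Proliferation markers (11 measured of 12, all 11 with a lower mean in white adipose tumours) were lowest there, at 9.58, 9.61 and 9.23 against 9.44, 9.17 and 9.33. Of other lists, the fibroblast markers Lum, Pdgfra and Dcn and the macrophage markers C1qa, C1qb and C1qc, for example, had those arrays highest. The other measured fibroblast and macrophage markers did not, and the mean of the fibroblast list was highest in white adipose 1, at 10.04. The part of T cell, fibroblast or macrophage content or of proliferation in the values of these members was not tested.

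**Figure D4:**
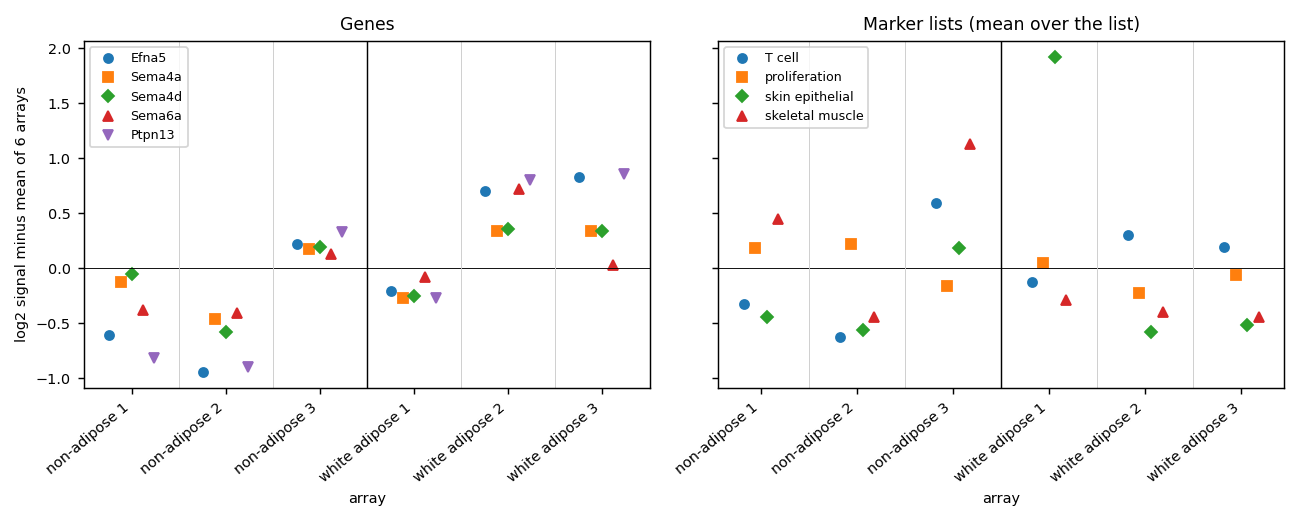
For 5 genes (left) and 4 marker lists (right, the mean over the list), the log2 signal on each array is plotted as its deviation from the mean of the 6 arrays. Efna5, Sema4a, Sema4d, Sema6a and Ptpn13 are above their means in non-adipose 3 and white adipose 2 and 3, Sema6a only slightly in white adipose 3. T cell markers are above their mean on the same arrays. The 5 genes were picked for the plot with these highest arrays known, so the match is no test of a link. The T cell list is highest in non-adipose 3, and each of the 5 genes in white adipose 2 or 3. Skin epithelial markers are high in white adipose 1.

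Some ligands and their known receptors were set side by side, picked without a rule and with no test of a link. The Sema3e difference of -0.22 stood beside 0.19 for its receptor Plxnd1, with 0 inside both intervals. For Sema4d and its receptor Plxnb1 the differences were 0.30 and -0.011, the latter 0.0048 after quantile normalization. For Sema7a and Plxnc1 they were -0.19 and 0.18, and for Sema6d and Plxna1 0.17 and -0.38. Sema6a, at 0.44, stood beside 0.23 for Plxna2 and -0.012 for Plxna4. Efnb2 and Ephb4, the arterial and venous partners, were at -0.12 and -0.10. Of the neuropilins, co-receptors of most class 3 semaphorins, Nrp1 was at 10.49, 10.99 and 10.75 against 10.78, 11.08 and 11.00, a difference of 0.21 (SE 0.15) that became 0.084 without non-adipose 1. Nrp2 was at 10.05, 9.70 and 10.29 against 10.15, 10.17 and 10.15, a difference of 0.14 (SE 0.15) that became -0.021 without non-adipose 2.

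Genes of the same pathways outside the 4 families, a list of 75 co-receptors, other guidance ligands and intracellular effectors, had 72 measured. None passed the test, with 36 higher and 36 lower in the mean and a median difference of 0.0009. The median was 0.0123 without non-adipose 2, -0.0156 without non-adipose 1 and -0.0205 with array medians subtracted. At an unadjusted p under 0.05 there was 1 lower, Slit2, and 0 higher, 1.39% of the list against 3.79% of all genes. Slit2, the secreted ligand of Robo receptors, was at 10.23, 10.12 and 10.23 in non-adipose and 9.94, 9.82 and 9.80 in white adipose tumours. All white adipose values were below all non-adipose ones, with a difference of -0.34 (SE 0.069, interval -0.51 to -0.17), 1.27-fold lower, and an adjusted p of 0.936 in limma. Ptpn13, a phosphatase that acts on ephrin-B proteins, was at 5.86, 5.78 and 7.01 against 6.41, 7.48 and 7.54. Its arrays stood in the same order as those of Efna5, and it differed by 0.93 (SE 0.44). Vav2, a signalling protein recruited by Eph receptors, differed by -0.19 (SE 0.085), and Met, the HGF receptor that associates with Plxnb1, by -0.18 (SE 0.096).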

How the data were processed

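Each array was hybridised with biotin-labelled cDNA from total RNA of 1 tumour (WT PLUS kit, per the labels' protocols). The authors deposited log2 signals for 41345 probe sets on 6 arrays; that the scale is log2 was read from the values, 0.973 to 13.6. The submitters' processing notes name Affymetrix Expression Console as the tool, with its version, summarisation and normalization between arrays not given in the sources used here. Of the probe sets, 23521 had exactly 1 symbol in the platform annotation, and the highest-mean probe set per gene left 22180 genes.

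White adipose was set against non-adipose with limma 3.58.1 in R 4.3.3 (lmFit, eBayes, all 6 arrays, no filter, no replicate block) over all genes, with Benjamini-Hochberg adjustment and a threshold of 0.05. Differences are white adipose minus non-adipose, with moderated standard errors and 95% confidence intervals. The number of arrays limits the precision, with a median SE of 0.0972 over all genes and 0.113 over the members. In 10 simulations of 22180 independent genes for this comparison, the fit recovered 99.2% of 4-fold, 91.4% of 2-fold and 34.6% of 1.41-fold increases. Of its calls, 4.83% were false. The noise was normal, with variances that limma had already moderated, which spread less between genes than unmoderated ones and may raise the recovery. Many genes were changed at once, which eases the adjusted threshold. Changed genes were drawn from all genes, so the rates are averages. They cannot be read for members with wide errors, such as Efna5 (SE 0.39), Sema3d (SE 0.47) and Sema3c (SE 0.53).

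The members and lists were chosen with earlier results of these data known. Values on every array were given by rule for members past the threshold, the 12 with the smallest unadjusted p, those differing by at least 0.5 and the 2 with the smallest p of each of 5 classes (Eph receptors, ephrins, secreted and membrane semaphorins, plexins), 14 in all. Of the other pathway genes, the rule named the 4 with the smallest p and both neuropilins. A further 14 members were named with their values after those were seen: Efna2, Efnb1, Ephb3, Ephb4, Plxnb1, Plxnc1, Plxnd1, Sema3a, Sema3c, Sema3e, Sema4a, Sema4d, Sema7a and Plxna4os1. Differences were also given for Efna1, Efna3, Efna4, Plxna4, Sema3f and Sema3g, which are not among these 14. Promoter windows came from RefSeq (GRCm38.p6), which held 44 of the 51 members. Alternatives were a replicate block, leaving out each array, 2 rescalings, a filter on dim genes, other variance settings, array weights and probe set means.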

Additional observations from a re-analysis of the deposited data

How the results depend on the processing

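No member and no gene passed the threshold under any of the 13 alternatives, and the members' smallest adjusted p in limma was then 0.473 to 0.993. The members' median difference of 0.060 stayed above 0, at 0.027 to 0.074. The replicate block, for numbers that correlated at 0.142, 0.064 and 0.0641 between sites and were not taken as pairs, called 0 members, with 2 higher and 2 lower at an unadjusted p under 0.05, beside 4.87% of all genes in that fit and 3.79% in the one reported. White adipose 2 correlated best with non-adipose 3, not with its own number. At that p, members higher (2) and lower (1) became 0 to 4 and 1 to 3 with 1 array left out. Without white adipose 1 there were 4 and 3, beside 8.12% of all genes, and without white adipose 3 there were 0 and 1, beside 3.04%. Members higher were 1 with array medians subtracted, 0 with dim genes removed (32 members left) and 4 with array weights, and members lower were 2 with dim genes removed, 2 with trend and robust variance and 3 with array weights. Of all genes 3.93% passed that p with medians subtracted, 4.62% with dim genes removed, 3.86% with trend and robust variance and 7.31% with array weights. The cause was not tested. Of 34 named genes, 28 kept their direction under each alternative that measured them. With 1 array left out, Nrp2 ran from -0.021 to 0.28, Plxnb1 from -0.076 to 0.076, Sema3a from -0.095 to 0.53, Sema3c from -0.35 to 0.78, Sema7a from -0.38 to 0.044 and Plxna4os1, at 0.015 with all arrays, from -0.065 to 0.078. Plxna4os1 was at -0.0067 with array medians subtracted and -0.0078 after quantile normalization, and Plxnb1 at 0.0048 after the latter. Efna1, Efna3, Efna4, Plxna4, Sema3f and Sema3g, whose differences are also given, lie outside the 34. With 1 array left out, Efna1 ran from -0.0033 to 0.17, Efna4 from -0.14 to 0.0175 and Plxna4 from -0.068 to 0.089. Sema3f ran from -0.12 to 0.0835, whereas Efna3, at -0.23 to -0.0057, and Sema3g, at 0.037 to 0.16, kept their direction. Subtracting array medians moved the median of all genes to -0.022. Without detection calls, dim members such as Epha5 and Sema4f cannot be separated from background.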

Other observations

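Promoter windows of the guidance genes were richer in G and C than those of protein-coding genes at large. Over 58 windows of 44 members, some of which share a gene, the median GC content of the 250 bases before the start was 64.0%, against 55.6% over protein-coding genes. GGGCGG or CCGCCC was present in 75.9% of these windows and in 42.6% of those of protein-coding genes, CCAAT or ATTGG in 31.0% and 35.4%, and TATAAA or TTTATA in 1.72% and 11.6%. These are descriptions of the sequences and were not set against expression.

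Members that lie next to each other in the genome, with no protein-coding gene between their starts, are given side by side, with no test of how they differ. Efna1, Efna3 and Efna4 differed between sites by 0.060, -0.12 and -0.045, and Sema3a and Sema3d by 0.27 and 0.70. The second Plxnb1 probe set differed by -0.12, the one used by -0.011. Plxna4 and its antisense transcript Plxna4os1 were at -0.012 and 0.015. A signal identical on at least 2 arrays to the last deposited digit, with no rounding, was found for 35.3% of genes and 11 members. Sema6c had the same value on all 3 non-adipose arrays, 5.08, so its spread there is 0.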
